A study of Rattus norvegicus with 48 samples.

Results

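Kidneys of F rats after 10 days of indole-3-carbinol were compared with kidneys of F rats after 7 days, across all 8797 probe sets of a whole-transcript array. The comparison holds 8 of the 48 arrays of the series, 4 at each day, chosen by strain and day from the sample titles. All rats were male, with an age of 12 weeks in the sample labels and of 12 to 14 weeks in the treatment protocol. The F day 10 and F day 7 rats received indole-3-carbinol by gavage at a daily dose of 100 mg per kg, and F rats given the vegetable oil carrier alone are called day 0, as in the titles. The same treatments in the strains L, FL and LF, with 4 arrays per strain and day, served as the background for what was particular to F. The labels do not say what the strain letters stand for. The protocol lists 8 rats per group and the series design 4 biological replicates, and the labels do not state if arrays hold RNA of single rats or of pools.

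Indole-3-carbinol is a compound of cabbage-family plants. In the stomach it forms products that bind the aryl hydrocarbon receptor (AhR), a transcription factor that switches on Cyp1a1 and other drug-metabolizing genes. The series design calls the treatment an induction without naming an induced gene. Damaged kidney tubules are known to switch on Havcr1, Lcn2, Clu and Timp1, and macrophages and fibroblasts take part in the repair that follows.

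Values are log2 signals, and every difference below is a log2 difference, day 10 minus day 7, with its standard error unless stated otherwise. Array medians were 5.70 to 5.94 at day 10 and 5.77 to 6.0 at day 7. The array spread, which is the SD over probe sets of 1 array, averaged 2.40 ± 0.0754 at day 10 and 2.44 ± 0.0535 at day 7 (SD, n = 4 arrays each), and the 2-sided exact permutation test gave p = 0.371, where the smallest p this design allows is 0.0286. The spread was lowest in replicate 4 at both days, at 2.31 and 2.37. Replicate numbers name array runs of 12 arrays each, so that each day 10 array has a day 7 array of the same run. The permutation test did not pair arrays by run. Within each run the spread was lower at day 10. Replicates 1 to 4 had spreads of 2.495, 2.404, 2.394 and 2.311 at day 10, against 2.503, 2.455, 2.446 and 2.373 at day 7. Medians were also lower in each run, at 5.94, 5.82, 5.82 and 5.70, against 6.0, 5.89, 5.87 and 5.77. These within-run differences were not tested. Mean correlations of an array with the others of its group were 0.982 to 0.986 at day 10 and 0.988 to 0.991 at day 7. The kidney markers stood at high signal at both days. Umod of the thick ascending limb averaged 12.75 at day 10 and 12.75 at day 7, the proximal tubule phosphate carrier Slc34a1 11.93 and 11.98, the water channel Aqp2 9.43 and 9.42, and the podocyte gene Podxl 9.16 and 9.27. The granulocyte gene S100a8 was among the dim probe sets, at 2.18 at day 10 and 2.00 at day 7.

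Between day 10 and day 7, no probe set passed an adjusted p of 0.05 in either direction in F kidneys (0.00% of 8797 higher and 0.00% lower), and the smallest adjusted p was 0.652. The injury genes Havcr1 and Clu, the fibrinogen gene Fgb and the AhR target Cyp1a1 were above day 0 past the threshold at both days. Where nothing differs, a share of about 0.05 passes an unadjusted p under 0.05. At this threshold limma gave 156 probe sets higher (1.77%) and 211 lower (2.40%), together 367 (4.17%). With the array run as a block it gave 179 higher and 338 lower, and the smallest adjusted p was 0.137. With the array spread as a covariate it gave 273 higher and 246 lower. The 4 arrays of a day all lay above the 4 of the other day for 56 probe sets higher at day 10 (0.637%) and 107 lower (1.22%). The 95% interval extended by 0.29 to each side of the difference at the median probe set, by 0.19 at the 10th percentile and by 0.54 at the 90th. The median SD within a group was larger at day 10, at 0.227, than at day 7, at 0.172.

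The median difference over all probe sets was -0.05, with 5737 below 0 (65.2%) and 3039 above (34.5%). This direction depended on the scaling of the arrays. After a second quantile normalization the median was 0.0031, with 4304 of 8797 below 0 and 201 probe sets higher and 163 lower at the unadjusted threshold, and with array medians subtracted it was 0.0125, with 244 higher and 128 lower. The differences also ran with signal level. When probe sets were ranked by mean signal over all arrays and divided into 4 bins of nearly equal size, the median difference was 0.0475 in the dimmest bin, -0.03 and -0.0925 in the bins between, and -0.08 in the brightest. In the dimmest bin 112 probe sets were higher and 35 lower at the unadjusted threshold, against 9 higher and 34 lower in the brightest. In L, FL and LF the medians ran the other way, at -0.04, -0.0325 and -0.0575 in the dimmest bin and 0.10, 0.0925 and 0.1425 in the brightest. With the array spread as a covariate the median was 0.0079, with 4156 below 0. Counts of list members below 0 stand beside the 65.2% of all probe sets in the deposited scaling. Counts of members lower or higher at the unadjusted threshold stand beside 2.40% and 1.77% of all probe sets. Counts without overlap stand beside 1.22% lower and 0.637% higher. The part of array spread and signal level in the gene lists below was not tested. A lower list median in whole kidney cannot tell fewer cells of a type from less RNA per cell.

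**Figure D1:**
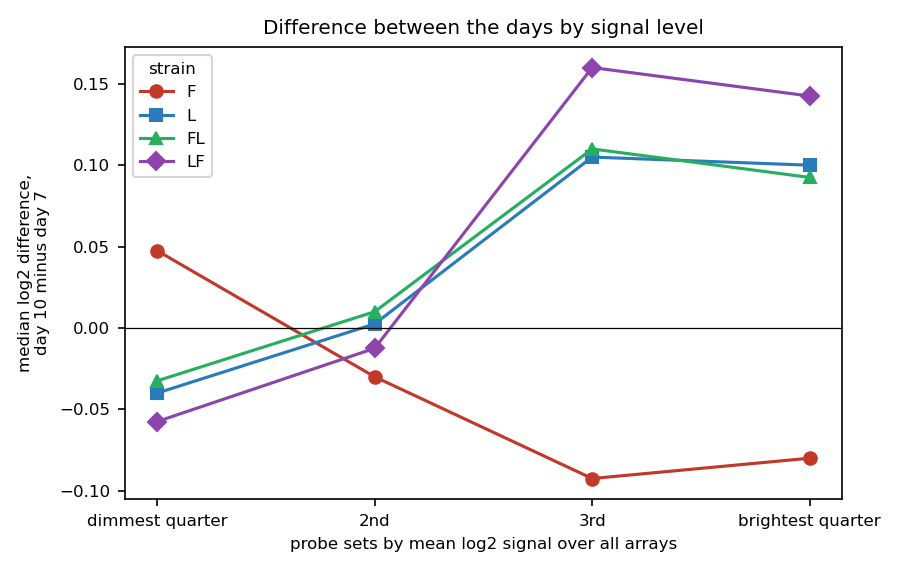
Median log2 difference, day 10 minus day 7 (vertical axis), in 4 bins of probe sets ranked by mean log2 signal over all arrays (horizontal axis), with 1 line per strain. The F line starts at 0.0475 in the dimmest bin, is lowest at -0.0925 in the 3rd and ends at -0.08 in the brightest. The lines of L, FL and LF start below 0 and are highest in the 3rd bin, at 0.105, 0.11 and 0.16.

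Among the tubular injury genes, Havcr1 and Clu stood above carrier level at both treated days, and no member passed the threshold between the days. Havcr1, the kidney injury molecule of damaged proximal tubules, read 7.37, 7.68, 5.44 and 7.00 on the day 10 arrays, against 7.61, 6.60, 6.14 and 7.58 at day 7 and 4.00, 3.66, 3.63 and 3.91 at day 0. The arrays of both treated days lay above all day 0 arrays and overlapped each other, with the lowest value in replicate 3 at both days. Havcr1 rose against day 0 by 3.07 ± 0.54 at day 10 (adjusted p = 0.00252) and by 3.18 ± 0.54 at day 7 (adjusted p = 0.00128). Its difference between the days was -0.11 ± 0.54, with a 95% interval of -1.21 to 0.99. Clu, the secreted chaperone clusterin, read 9.43, 9.85, 8.95 and 9.59 at day 10, against 9.66, 9.28, 9.29 and 9.79 at day 7 and 8.41 to 8.61 at day 0. It rose against day 0 by 0.96 ± 0.21 at day 10 (adjusted p = 0.0274) and by 1.01 ± 0.21 at day 7 (adjusted p = 0.00698), and the days overlapped, with a difference of -0.05 ± 0.21. The direction of both small differences turned when single arrays were left out.

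Timp1, an inhibitor of matrix-degrading proteases, read 6.37, 6.42, 6.32 and 6.01 at day 10, against 6.96, 6.90, 6.41 and 6.73 at day 7 and 5.73, 5.78, 5.76 and 5.41 at day 0. Day 10 lay between the other groups, above every day 0 array and below every day 7 array except replicate 3. The difference between the days was -0.47 ± 0.20 (adjusted p = 0.974), below 0 in each of the 4 runs, as for 1274 of 8797 probe sets (14.5%), against 325 above 0 in each run (3.69%). Timp1 rose against day 0 by 1.08 ± 0.20 at day 7 (adjusted p = 0.00195), and stood at 0.61 ± 0.20 at day 10 (adjusted p = 0.231). Gpnmb, a glycoprotein of macrophages and injured tubules, rose by 0.90 ± 0.18 at day 7 (adjusted p = 0.00416) and stood at 0.62 ± 0.18 at day 10 (adjusted p = 0.15). Between the days Gpnmb differed by -0.28 ± 0.18 with overlapping arrays. Vim, the intermediate filament of dedifferentiated and mesenchymal cells, read 8.76 to 8.87 at day 10, against 8.94 to 9.15 at day 7, without overlap, and its difference was -0.22 ± 0.11. Lcn2, a secreted lipocalin of damaged tubules, had a difference of 0.06 ± 0.20.

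Of the 28 measured injury and repair genes, 0 passed the adjusted threshold between the days, 0 were higher and 1 lower at the unadjusted one, and 23 had a difference below 0. Their median was -0.10, beside -0.05 over all probe sets, and it was -0.0348 after a second quantile normalization, -0.0362 with array medians subtracted and -0.0053, with 15 of 28 below 0, with the array spread as a covariate. Against day 0 in the same list, 2 genes rose and 0 fell at day 10, and 5 rose and 0 fell at day 7, where the shares over all probe sets were 0.0796% higher and 0.159% lower at day 10 and 0.432% higher and 0.239% lower at day 7. The comparisons with day 0 share arrays with the comparison between the days and are not independent of it. Among the named genes, only Cyp1a1 at both days and Calb1 at day 10 kept their day 0 calls under every alternative run.

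**Figure D2:**
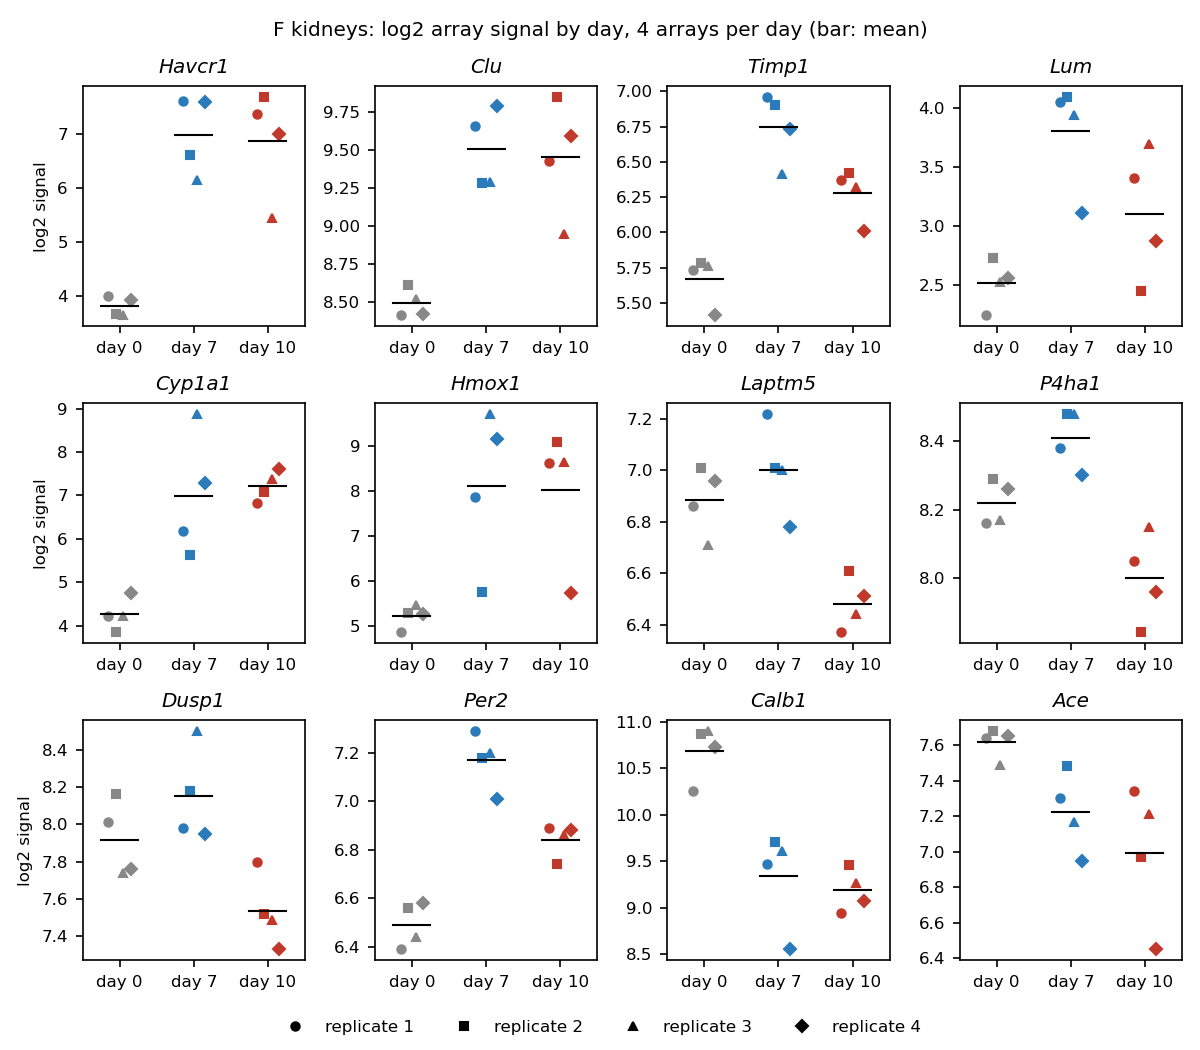
Log2 signal (vertical axes) of 12 genes on every F array at days 0, 7 and 10, with 1 marker shape per replicate number, which is the array run, and a bar at the mean of 4 arrays. Havcr1 and Clu overlap between days 7 and 10 above day 0, and Laptm5, P4ha1, Dusp1 and Per2 do not overlap between days 7 and 10.

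Among acute phase, complement and coagulation genes, Fgb, the fibrinogen beta chain, read 6.79, 6.42, 6.16 and 6.23 at day 10, against 6.99, 6.25, 6.39 and 6.79 at day 7 and 5.08 to 5.47 at day 0. Fgb rose against day 0 by 1.11 ± 0.23 at day 10 (adjusted p = 0.0136) and by 1.31 ± 0.23 at day 7 (adjusted p = 0.00128), and the treated days overlapped, with a difference of -0.20 ± 0.23. Serpina3n, a secreted protease inhibitor, had a difference of -0.16 ± 0.35 with overlapping arrays. Of 28 measured genes in this list, 0 passed the adjusted threshold between the days, 2 were lower and 0 higher at the unadjusted one, and 24 lay below 0, with a median of -0.16 that was -0.11 after a second quantile normalization and -0.0818 with the array spread as a covariate.

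Cyp1a1, the monooxygenase that AhR switches on most strongly, was high at both treated days. It read 6.83, 7.08, 7.39 and 7.60 at day 10, against 6.18, 5.62, 8.88 and 7.28 at day 7 and 4.22, 3.84, 4.23 and 4.75 at day 0. Every treated array lay above every day 0 array, and the day 10 arrays lay inside the wider day 7 range. The mean was 7.22 ± 0.339 at day 10 and 6.99 ± 1.44 at day 7 (SD, n = 4 each), which gave a difference of 0.23 ± 0.43 and a 95% interval of -0.64 to 1.11. Cyp1a1 rose against day 0 by 2.97 ± 0.43 at day 10 (adjusted p = 0.00015) and by 2.73 ± 0.43 at day 7 (adjusted p = 0.000856). Ahrr, the repressor that AhR induces to limit itself, read 3.57 to 3.70 at day 10, against 3.40 to 3.70 at day 7, a difference of 0.12 ± 0.098. Of 9 measured AhR targets, 0 passed either threshold between the days, 4 were below 0, and the median was 0.0125.

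Hmox1, the haem-degrading stress enzyme, split the arrays of each day. It read 8.61, 9.09, 8.64 and 5.74 at day 10, against 7.87, 5.75, 9.71 and 9.15 at day 7 and 4.86, 5.30, 5.46 and 5.28 at day 0. In each treated group 3 arrays stood well above day 0 and 1 close to it, replicate 4 at day 10 and replicate 2 at day 7. The difference between the days was -0.10 ± 0.86, with a 95% interval of -1.84 to 1.64, and it was 0.66 without day 10 replicate 4. Against day 0 Hmox1 did not pass the threshold at day 10 (2.80 ± 0.86, adjusted p = 0.214) or at day 7 (2.90 ± 0.86, adjusted p = 0.145).

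Nqo1, a quinone reductase under both AhR and Nrf2, read 5.14, 4.52, 4.88 and 3.96 at day 10, against 4.98, 4.77, 5.39 and 4.56 at day 7, with overlap and a difference of -0.30 ± 0.24. Nfe2l2, which encodes Nrf2, read 9.15 to 9.26 at day 10, against 9.25 to 9.52 at day 7, and differed by -0.17 ± 0.12. Of 17 Nrf2 targets and glutathione enzymes, 16 lay below 0 with a median of -0.13, and 0 passed the adjusted or the unadjusted threshold. These were 13 of 17 and -0.0540 after a second quantile normalization, and 8 of 17 and 0.0169 with the array spread as a covariate. Sult1a1, a sulfotransferase for phenols, read 8.09, 7.63, 7.90 and 8.79 at day 10, against 8.75, 8.67, 9.08 and 8.07 at day 7 and 7.09 to 7.49 at day 0. It rose against day 0 by 1.33 ± 0.32 at day 7 (adjusted p = 0.0293) and stood at 0.80 ± 0.32 at day 10 (adjusted p = 0.393). Replicate 4 had the highest Sult1a1 at day 10 and the lowest at day 7, and the difference between the days was -0.54 ± 0.32.

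In the lower direction, the 10 named genes of smallest p were Eya2, P4ha1, Or4f58, Rhoh, Laptm5, Atp1b4, Carhsp1, Ccn1, Trappc4 and Gfpt2, with adjusted p between 0.652 and 0.913. Being chosen by p, they are a description. P4ha1, the catalytic subunit of collagen prolyl hydroxylase on chromosome 20, read 8.05, 7.84, 8.15 and 7.96 at day 10, against 8.38, 8.48, 8.48 and 8.30 at day 7 and 8.16, 8.29, 8.17 and 8.26 at day 0. All day 10 arrays lay below all day 7 and all day 0 arrays. The difference was -0.41 ± 0.11 (adjusted p = 0.652), with a 95% interval of -0.62 to -0.20.

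Rhoh, a small G protein of blood cells that lacks GTPase activity, read 3.41, 3.69, 3.47 and 3.31 at day 10, against 4.22, 4.11, 4.41 and 4.15 at day 7 and 3.54 to 4.12 at day 0. The days did not overlap, and the difference was -0.75 ± 0.20. Eya2, a phosphatase and transcriptional coactivator of the eyes absent family, read 4.86 to 4.97 at day 10, against 5.08 to 5.29 at day 7, without overlap, and differed by -0.30 ± 0.077. The vesicle tethering subunit Trappc4 read 6.94, 6.27, 6.76 and 6.93 at day 10, against 7.05, 7.12, 7.12 and 7.05 at day 7, and differed by -0.36 ± 0.11. Carhsp1, a calcium-regulated RNA-binding protein, differed by -0.34 ± 0.099, and Gfpt2, which starts hexosamine synthesis, by -0.29 ± 0.089. Neither overlapped between the days. The olfactory receptor Or4f58, a dim probe set, read 3.00, 2.26, 2.97 and 3.67 at day 10, against 3.99, 4.09, 3.87 and 4.35 at day 7, a difference of -1.10 ± 0.29. Atp1b4, a muscle protein of the sodium pump beta family, was also dim and differed by -0.28 ± 0.076.

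**Figure D3:**
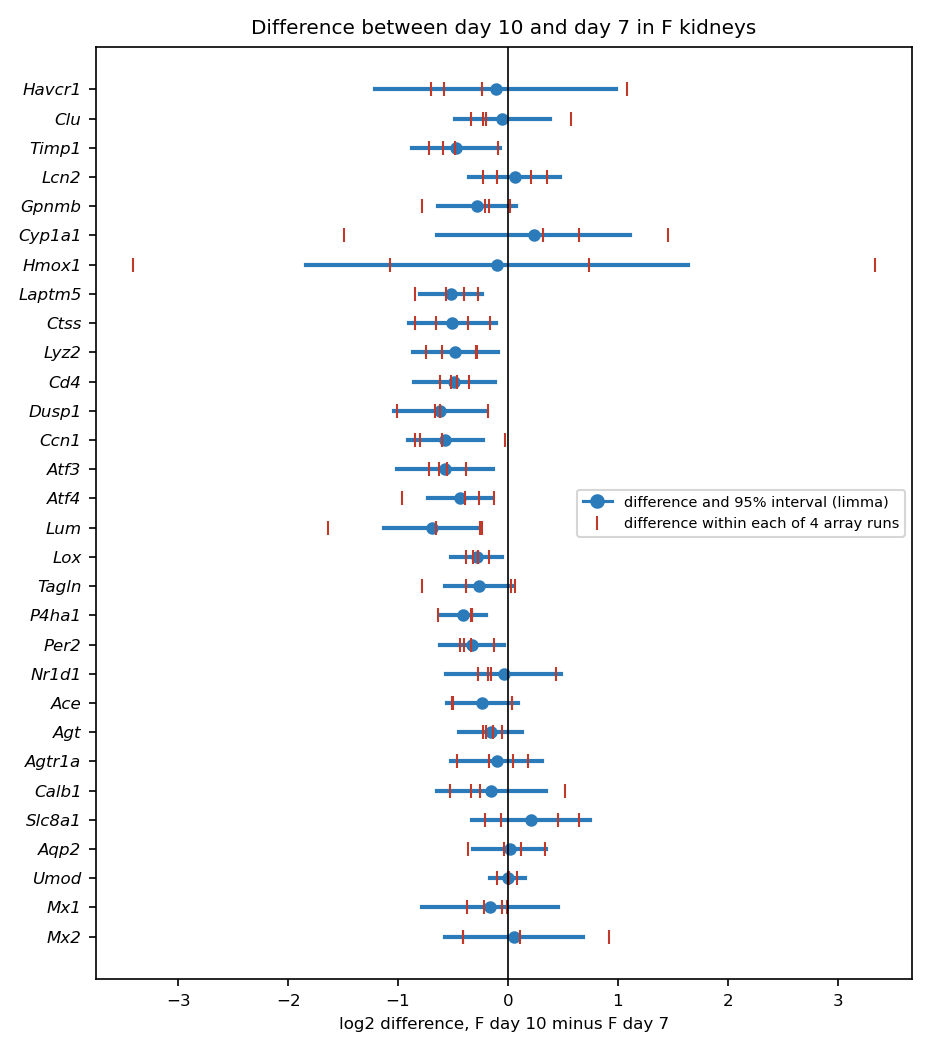
Log2 difference, day 10 minus day 7 (horizontal axis), of 30 genes in F kidneys, with the 95% interval from limma as a bar and the difference within each of the 4 array runs as a tick. The ticks of Hmox1 spread from -3.41 to 3.34, whereas all 4 ticks of Laptm5, P4ha1 and Dusp1 lie below 0.

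In the higher direction, the 10 named genes of smallest p were Or6k14, Or7g23e, Or6s1, Zg16, Or5b96, Acsm4, Or1e22, Vom1r42, Obp1f and Crisp2, with adjusted p between 0.652 and 0.939. All averaged below 4 at both days, and 6 are receptors of the olfactory and vomeronasal families, which sense odours and pheromones in the nose. Or6k14, on chromosome 13, had the smallest p of the comparison and read 3.07, 3.00, 2.66 and 2.13 at day 10, against 2.36, 2.08, 1.61 and 1.77 at day 7 and 1.92 to 2.98 at day 0. The days overlapped, day 10 was higher in each of the 4 runs, and the difference was 0.76 ± 0.18. Or6k14 passed the threshold with the array spread as a covariate (0.85, adjusted p = 0.0448) and without day 10 replicate 4 (0.96, adjusted p = 0.024). Vom1r42 read 2.62, 2.83, 2.87 and 2.77 at day 10, against 2.34, 2.37, 2.31 and 2.33 at day 7 and 2.65 to 2.84 at day 0, so its day 7 arrays were below both other groups. Or6s1 fell against day 0 at day 7 (-0.82 ± 0.17, adjusted p = 0.0068), stood at -0.20 ± 0.17 at day 10 and differed by 0.62 ± 0.17 between the days, without overlap.

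Zg16, a lectin of secretory granules, read 3.63, 4.03, 3.79 and 3.73 at day 10, against 3.15, 3.61, 3.20 and 3.01 at day 7. The days did not overlap, and the difference was 0.55 ± 0.15. Obp1f, an odorant-binding lipocalin, read 4.80, 3.71, 3.00 and 2.48 at day 10, against 2.42, 2.95, 2.20 and 2.29 at day 7 and 1.67 to 2.28 at day 0. Replicate 1 was the highest at day 10 and replicate 4 lay inside the day 7 range. Obp1f rose against day 0 at day 10 by 1.54 ± 0.32 (adjusted p = 0.0136), and its difference between the days was 1.03 ± 0.32 (adjusted p = 0.913).

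Of 23 measured macrophage and myeloid genes 18 lay below 0. At the unadjusted threshold 4 were lower, beside 2.40% of all probe sets, and 0 higher. Without overlap between the days were 2, both lower, beside 1.22% of all probe sets. The median was -0.25, beside -0.05 over all probe sets, and it was -0.17 after a second quantile normalization, -0.19 with array medians subtracted and -0.11 with the array spread as a covariate. It was -0.13 without day 10 replicate 4, -0.11 without day 7 replicate 1 and -0.39 without day 7 replicate 4. The mean of the list per array was 5.37 to 5.72 at day 10, against 5.56 to 6.08 at day 7 and 5.70 to 5.95 at day 0, so the days overlapped.

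Laptm5, a lysosomal membrane protein of blood cells on chromosome 5, read 6.37, 6.61, 6.44 and 6.51 at day 10, against 7.22, 7.01, 7.00 and 6.78 at day 7 and 6.86, 7.01, 6.71 and 6.96 at day 0. All day 10 arrays lay below all arrays of both other groups. The difference from day 7 was -0.52 ± 0.14 (adjusted p = 0.665), with a 95% interval of -0.80 to -0.24. Ctss, the lysosomal protease cathepsin S that prepares antigens, read 6.70, 6.79, 7.24 and 6.45 at day 10, against 7.55, 6.95, 7.60 and 7.10 at day 7. Its days overlapped in 1 day 10 array, replicate 3, and the difference was -0.50 ± 0.20. Lyz2, the lysozyme of macrophages and neutrophils, read 8.80, 8.95, 8.86 and 8.23 at day 10, against 9.55, 9.23, 9.15 and 8.83 at day 7, a difference of -0.48 ± 0.19.

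Cd4, carried by helper T cells and by rat macrophages, read 6.17, 5.94, 5.99 and 5.28 at day 10, against 6.63, 6.56, 6.34 and 5.80 at day 7. The lowest Cd4 array of each day was replicate 4, day 10 was lower in each run, and the difference was -0.49 ± 0.18. C1qc, a chain of complement C1q made by macrophages, differed by -0.30 ± 0.17, lower in 3 of 4 runs. The defining marker Adgre1 averaged 5.17 ± 0.248 at day 10 and 5.46 ± 0.588 at day 7 (SD, n = 4 each), a difference of -0.29. The T and natural killer cell list had 22 measured members with a median of -0.0575, and the list mean per array was 4.26 to 4.38 at day 10, against 4.28 to 4.42 at day 7. The granulocyte and mast cell list had 17 with a median of 0.0525, and the B and plasma cell list had 5 with a median of -0.16. With the array spread as a covariate the medians were -0.10 for T and natural killer cells and -0.0995 for B and plasma cells, beside -0.11 for macrophages. In these 3 lists 0 members passed the adjusted threshold.

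Immediate early and hormone responsive genes, which react within minutes to growth factors, cAMP and glucocorticoids, had 37 of 41 measured members below 0 and a median of -0.14. At the unadjusted threshold 5 were lower, beside 2.40% of all probe sets, and 0 higher. Without overlap between the days was 1, lower, beside 1.22% of all probe sets. The median was -0.11 after a second quantile normalization, -0.0750 with array medians subtracted and -0.13 with the array spread as a covariate. Dusp1, the phosphatase that switches off MAP kinases, read 7.80, 7.52, 7.49 and 7.33 at day 10, against 7.98, 8.18, 8.50 and 7.95 at day 7 and 8.01, 8.16, 7.74 and 7.76 at day 0. No day 10 array reached the day 7 range, and the day 10 range overlapped day 0. The difference from day 7 was -0.62 ± 0.21 (adjusted p = 0.974), lower in each run.

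Ccn1, a matrix protein induced by growth factors and mechanical strain, read 7.47, 6.85, 6.85 and 6.48 at day 10, against 7.50, 7.65, 7.45 and 7.33 at day 7 and 6.61 to 7.00 at day 0. Day 10 replicate 1 lay inside the day 7 range and the other 3 arrays inside or below the day 0 range. The difference was -0.57 ± 0.17 (adjusted p = 0.812), and that from day 0 was 0.0450 ± 0.17 at day 10 and 0.61 ± 0.17 at day 7 (adjusted p = 0.0885). Nr4a1, an orphan nuclear receptor induced by many stimuli, differed by -0.45 ± 0.18, and Sik1, a salt-inducible kinase, by -0.30 ± 0.13. Tsc22d3, the glucocorticoid-induced leucine zipper, read 7.98, 7.39, 7.76 and 7.65 at day 10, against 8.01, 7.93, 8.81 and 7.96 at day 7. Its highest value was day 7 replicate 3, and the difference was -0.48 ± 0.22.

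The clock genes were measured in tissue taken at an hour the labels do not give. Nr1d1, the repressor REV-ERB alpha, read 7.05, 7.65, 7.45 and 7.26 at day 10, against 7.32, 7.21, 7.60 and 7.44 at day 7 and 8.85, 8.91, 8.74 and 8.96 at day 0. Nr1d1 fell at both days, with a difference from day 0 of -1.51 ± 0.26 at day 10 (adjusted p = 0.00173) and of -1.47 ± 0.26 at day 7 (adjusted p = 0.00142), and the treated days overlapped, with a difference of -0.0400 ± 0.26. Per2, a period protein that represses the clock's activators, read 6.89, 6.74, 6.86 and 6.88 at day 10, against 7.29, 7.18, 7.20 and 7.01 at day 7 and 6.39, 6.56, 6.44 and 6.58 at day 0. The 3 groups did not overlap, with day 10 between the others. Per2 rose against day 0 at day 7 by 0.68 ± 0.14 (adjusted p = 0.00809), stood at 0.35 ± 0.14 at day 10 (adjusted p = 0.407) and differed by -0.33 ± 0.14 between the days (adjusted p = 0.974). The activator Bmal1 had a difference of -0.0575 ± 0.29 and Dbp, a clock output factor, one of -0.21 ± 0.20. Of 17 measured clock genes 16 lay below 0 with a median of -0.10, and 2 were lower and 0 higher at the unadjusted threshold. The median was -0.0236 with 11 of 17 below 0 after a second quantile normalization, and -0.0079 with the array spread as a covariate.

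Per2 and Dusp1 were chosen, after their values were seen, for a look at their promoters, because each was the gene of its list whose day 10 arrays all lay below its day 7 arrays. Searched on both strands were the D-box TTATGTAA, bound by Dbp and its relatives, the cAMP response element TGACGTCA, bound by CREB, and the E-box CACGTG, bound by the clock's activators. The 250 bases before the RefSeq start in GRCr8 are given 5′ to 3′ on the gene's strand, with matches in capitals. The Per2 stretch is chr9:99496994-99497243 on the minus strand and the Dusp1 stretch chr10:17184603-17184852 on the plus strand.
Per2: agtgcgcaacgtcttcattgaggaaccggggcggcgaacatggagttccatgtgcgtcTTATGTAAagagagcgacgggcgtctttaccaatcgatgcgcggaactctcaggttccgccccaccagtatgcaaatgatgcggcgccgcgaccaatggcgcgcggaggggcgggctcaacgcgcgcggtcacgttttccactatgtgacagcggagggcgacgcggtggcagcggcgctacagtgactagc
Dusp1: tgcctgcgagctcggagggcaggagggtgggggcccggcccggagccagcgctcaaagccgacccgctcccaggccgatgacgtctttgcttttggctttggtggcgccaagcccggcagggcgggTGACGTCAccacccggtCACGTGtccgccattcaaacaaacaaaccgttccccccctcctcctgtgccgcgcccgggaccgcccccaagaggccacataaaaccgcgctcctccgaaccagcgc
In Per2 the D-box match ends 184 bases before the start, and 0.828% of 33469 promoters of this length hold one. In Dusp1 the cAMP response element match ends 116 bases before the start (1.59% of promoters) and the E-box match, which does not overlap it, 101 bases before it (5.59%). Other matches to these letters were not found in either stretch. Each match is a description of the sequence.

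Genes of the Atf4 and unfolded protein response, which slows translation under stress, had 22 of 28 measured members below 0 and a median of -0.10. At the unadjusted threshold 3 were lower, beside 2.40% of all probe sets, and 0 higher. The median was -0.0225 after a second quantile normalization, and -0.0220 with 17 of 28 below 0 with the array spread as a covariate. Atf4, the transcription factor at its centre, read 7.82, 8.10, 7.96 and 7.26 at day 10, against 8.08, 8.23, 8.35 and 8.22 at day 7 and 7.72 to 8.18 at day 0. Day 10 replicate 2 reached the day 7 range, replicate 4 was the lowest, and the difference was -0.43 ± 0.14. Atf3, a stress-induced partner of Atf4, read 5.49, 5.29, 5.39 and 5.88 at day 10, against 5.87, 5.92, 5.94 and 6.60 at day 7 and 5.06 to 5.58 at day 0. Replicate 4 was the highest at every day, and day 10 was lower than day 7 in each run, with a difference of -0.57 ± 0.22. Ddit3, the factor CHOP, differed by -0.33 ± 0.15, lower in 3 of 4 runs.

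Matrix and contractile genes had lower medians than all probe sets. Lum, the collagen-binding proteoglycan lumican of fibroblasts, read 3.40, 2.45, 3.69 and 2.87 at day 10, against 4.05, 4.09, 3.94 and 3.11 at day 7 and 2.24, 2.73, 2.52 and 2.56 at day 0. Day 10 reached into the range of both other groups, and it was below day 7 in each run. Lum rose against day 0 at day 7 by 1.28 ± 0.21 (adjusted p = 0.00127), stood at 0.59 ± 0.21 at day 10 (adjusted p = 0.316) and differed by -0.69 ± 0.21 between the days (adjusted p = 0.939). Lox, which cross-links collagen, read 4.86, 4.65, 4.87 and 4.83 at day 10, against 5.13, 5.03, 5.19 and 5.0 at day 7, without overlap, and differed by -0.28 ± 0.12. Sparc, a matrix protein that binds collagen, differed by -0.19 ± 0.086. Of 26 measured matrix genes 21 lay below 0. At the unadjusted threshold 4 were lower, beside 2.40% of all probe sets, and 0 higher, and the list median was -0.14. It was -0.0853 after a second quantile normalization and -0.11 with the array spread as a covariate, with 19 of 26 below 0 in both.

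Of 14 smooth muscle, pericyte and mesangium markers 13 lay below 0, with a median of -0.14. Among the 3 lower at the unadjusted threshold, beside 2.40% of all probe sets, Lum is on both lists. After a second quantile normalization 9 lay below 0 and the median was -0.0692, and with the array spread as a covariate 9 lay below 0. Cnn1, the smooth muscle protein calponin, read 5.29, 5.61, 5.30 and 5.30 at day 10, against 5.51, 5.83, 5.43 and 5.66 at day 7 and 4.99 to 5.15 at day 0. All treated arrays lay above day 0, and each run had the lower value at day 10. Cnn1 rose against day 0 at day 7 by 0.56 ± 0.11 (adjusted p = 0.00617) and stood at 0.33 ± 0.11 at day 10 (adjusted p = 0.289), with a difference of -0.23 ± 0.11 between the days. Tagln, an actin-binding protein of the same cells, rose at day 7 by 0.74 ± 0.15 (adjusted p = 0.00574), stood at 0.48 ± 0.15 at day 10 (adjusted p = 0.227) and differed by -0.27 ± 0.15. Notch3, a receptor of vascular smooth muscle and pericytes, differed by -0.17 ± 0.079.

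In the angiotensin system, which sets blood pressure and sodium balance, no member differed past the threshold. Ace, the enzyme that makes angiotensin II, read 7.34, 6.97, 7.21 and 6.45 at day 10, against 7.30, 7.48, 7.17 and 6.95 at day 7. The days overlapped, 2 of 4 runs were lower at day 10, and the difference was -0.23 ± 0.16, with a 95% interval of -0.55 to 0.088. Agt, the precursor angiotensinogen, differed by -0.15 ± 0.14, and Agtr1a, the main receptor of angiotensin II, by -0.10 ± 0.20. Agtr2, the second receptor, was dim, read 2.34, 1.78, 2.52 and 2.77 at day 10, against 2.37, 3.41, 3.07 and 3.54 at day 7, and differed by -0.74 ± 0.36. Of 14 measured members 11 lay below 0, with a median of -0.10. The list had 8 below 0 and -0.0246 after a second quantile normalization, and 6 below 0 and 0.0179 with the array spread as a covariate. Among 26 vasoactive and natriuretic genes the median was -0.12, and Ptger1, a prostaglandin E2 receptor, was the member higher at the unadjusted threshold. Ptger1 read 5.80, 6.02, 5.88 and 5.89 at day 10, against 5.59, 5.75, 5.49 and 5.38 at day 7 and 5.86 to 6.03 at day 0. Its day 7 arrays lay below both other groups, and the difference between the days was 0.34 ± 0.13.

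The tubule segment markers were close to each other at both days. Calb1, the calcium-binding protein of the distal convoluted tubule, read 8.94, 9.46, 9.27 and 9.07 at day 10, against 9.47, 9.71, 9.61 and 8.55 at day 7 and 10.25, 10.87, 10.90 and 10.73 at day 0. Calb1 fell at both days, with a difference from day 0 of -1.50 ± 0.24 at day 10 (adjusted p = 0.000862) and of -1.35 ± 0.24 at day 7 (adjusted p = 0.0017), and the treated days overlapped, with a difference of -0.15 ± 0.24. Aqp2, the vasopressin-controlled water channel, fell at both days, with a difference from day 0 of -0.80 ± 0.16 at day 10 (adjusted p = 0.0136) and of -0.82 ± 0.16 at day 7 (adjusted p = 0.00574), and differed by 0.0150 ± 0.16 between the days. Slc8a1, the sodium-calcium exchanger of the distal tubule, fell at day 7 (-1.30 ± 0.27, adjusted p = 0.00637), stood at -1.09 ± 0.27 at day 10 (adjusted p = 0.0664) and differed by 0.21 ± 0.27. Umod, the uromodulin gene, differed by -0.0025 ± 0.079, with a 95% interval of -0.16 to 0.16.

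List medians were -0.0663 for 30 proximal tubule markers, -0.0012 for 24 of Henle's loop and the distal convoluted tubule, -0.0650 for 22 of the collecting duct, -0.0863 for 12 of podocytes and -0.12 for 15 of endothelium. After a second quantile normalization they were, in the same order, -0.0192, 0.0548, 0.0207, 0.0050 and -0.0185. Across these 5 lists 0 markers passed the adjusted threshold and 1 was higher and 1 lower at the unadjusted one. The higher one was Pvalb, the calcium buffer parvalbumin of the distal tubule, which was dim and differed by 0.33 ± 0.15. Hbb-b1, the haemoglobin beta chain of red cells, read 9.02, 9.76, 9.26 and 8.29 at day 10, against 10.37, 9.87, 9.60 and 9.51 at day 7, lower in each run, with a difference of -0.76 ± 0.34. In the adipose and adrenal list 17 of 19 markers lay above 0, beside 34.5% of all probe sets. The median was 0.0600 in F, beside 0.015 in L, 0.08 in FL and -0.125 in LF. The list mean per array was 4.70 to 4.88 at day 10, against 4.60 to 4.73 at day 7 and 4.63 to 4.87 at day 0. Its largest difference in F was 0.72 ± 0.32 in Ucp1, the uncoupling protein of brown fat. Ucp1 read 3.81, 4.95, 4.42 and 4.01 at day 10, against 3.13, 3.96, 4.00 and 3.22 at day 7, with overlap.

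Heat shock genes and chaperones, which refold damaged proteins, were below 0 in 14 of 14 measured members, with a median of -0.17 and 0 past the unadjusted threshold. After a second quantile normalization 12 of 14 were below 0 and the median was -0.0739, and with the array spread as a covariate 11 of 14 and -0.0782. Hspb1, the small heat shock protein HSP27, read 7.95, 7.80, 7.92 and 8.10 at day 10, against 8.26, 7.87, 8.15 and 8.44 at day 7 and 7.40 to 7.50 at day 0. Hspb1 rose against day 0 at day 7 by 0.73 ± 0.13 (adjusted p = 0.00171), stood at 0.50 ± 0.13 at day 10 (adjusted p = 0.113) and differed by -0.24 ± 0.13, with overlapping arrays. Hsph1, a large co-chaperone, rose at day 7 by 0.55 ± 0.12 (adjusted p = 0.0156), stood at 0.30 ± 0.12 at day 10 (adjusted p = 0.427) and differed by -0.25 ± 0.12.

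Among fatty acid oxidation and PPAR targets, 30 of 34 measured members lay below 0, with a median of -0.10 and 0 past the unadjusted threshold. There were 21 of 34 below 0 and a median of -0.0270 after a second quantile normalization, and 16 of 34 and 0.0072 with the array spread as a covariate. Pdk4, which turns off glucose oxidation, read 6.69, 5.79, 6.74 and 6.46 at day 10, against 6.96, 6.62, 7.24 and 6.79 at day 7, and differed by -0.48 ± 0.33. Angptl4, an inhibitor of lipoprotein lipase, read 5.55, 5.41, 5.46 and 5.60 at day 10, against 6.47, 5.54, 5.76 and 5.77 at day 7 and 4.70 to 4.84 at day 0. Replicate 1 was the highest at day 7, and the difference was -0.38 ± 0.26. Angptl4 rose against day 0 at day 7 by 1.14 ± 0.26 (adjusted p = 0.0167) and stood at 0.76 ± 0.26 at day 10 (adjusted p = 0.269). Of 34 drug and steroid metabolism genes 24 lay below 0, with a median of -0.0875. Cyp24a1, which inactivates vitamin D, had the largest difference of that list at -0.77 ± 0.36, and read 7.06, 6.05, 6.49 and 6.81 at day 10, against 7.72, 7.50, 7.39 and 6.89 at day 7. The respiratory chain list had 25 of 27 members below 0 with a median of -0.0925, the hypoxia and glycolysis list 22 of 27 with -0.10, and the sterol and fatty acid synthesis list 14 of 24 with -0.0075. After a second quantile normalization the respiratory chain list had 20 of 27 below 0 with -0.0365 and the hypoxia list 17 of 27 with -0.0314, and with the array spread as a covariate the respiratory chain list had 14 of 27 with -0.0062.

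Interferon response genes, which restrict viruses, were nearly even, with 14 of 25 measured members below 0, a median of -0.03 and 0 past the unadjusted threshold. Mx1, a dynamin-like antiviral GTPase, read 4.10, 4.22, 3.91 and 3.60 at day 10, against 4.32, 4.23, 3.96 and 3.97 at day 7 and 4.65 to 5.37 at day 0. Both treated days lay below day 0 without passing the threshold, and the difference between them was -0.16 ± 0.31. In LF the same gene rose between the days by 2.25 ± 0.31 (adjusted p = 1.5e-05). Mx2 differed in F by 0.0525 ± 0.31. Of 17 cell cycle genes the median was -0.05, and Cdc25b, a phosphatase that triggers mitosis, read 5.87, 6.36, 6.19 and 5.95 at day 10, against 6.64, 6.52, 6.50 and 6.45 at day 7, without overlap and with a difference of -0.43 ± 0.20. The p53 target Cdkn1a, the cell cycle inhibitor p21, differed by -0.0525 ± 0.29. Of 45 chemokines and cytokines 23 lay below 0, with a median of -0.01, and Il6, an inflammatory cytokine, was dim and differed by 0.36 ± 0.14. The 15 histocompatibility genes had 14 below 0 and a median of -0.11, which became 10 below 0 with -0.0372 after a second quantile normalization and 10 with -0.0450 with array medians subtracted.

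The difference between the days in F was then tested against the mean of the same difference in L, FL and LF. No probe set passed the adjusted threshold (0.00% higher and 0.00% lower in F), and the smallest adjusted p was 0.0829. At the unadjusted threshold 310 probe sets had a higher change in F (3.52%) and 1080 a lower one (12.3%). These counts are in the deposited scaling, where the median over all probe sets was below 0 in F and above 0 in L, FL and LF. The part of that shift in the counts was not tested. The genes of smallest p were P4ha1, Timp1, Pkia and Rhoh, each at an adjusted p of 0.0829. Timp1 differed between the days by -0.47 in F, 0.56 in L, 0.61 in FL and 0.62 in LF, and the F change minus the mean of the others was -1.07 ± 0.23. P4ha1 differed by -0.41 in F, -0.03 in L, 0.26 in FL and 0.38 in LF, an F change of -0.61 ± 0.12 relative to the others. Both passed with the array run as a block, at adjusted p = 0.0399 and adjusted p = 0.0441, as did Fbxo30, a ubiquitin ligase subunit, at -0.73 (adjusted p = 0.0399 with the block and 0.167 without). There were 0 lower changes in F after a second quantile normalization, with array medians subtracted or with the array spread as a covariate. In the last 2 of these settings Or6k14 passed, with a higher change in F (limma adjusted p = 0.0147 and 0.0160).

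Pkia, an inhibitor of protein kinase A, read 3.87, 3.74, 4.07 and 3.73 at F day 10, against 4.50, 4.71, 4.44 and 5.16 at F day 7, without overlap. Its difference between the days was -0.85 in F, 0.42 in L, 0.75 in FL and 0.57 in LF, with a contrast of -1.43 ± 0.31. Havcr1 differed between the days by -0.11 in F, and by 1.63 in L, 1.33 in FL and 1.56 in LF, each ± 0.54. No strain passed the threshold (limma adjusted p = 0.812 in L, 0.823 in FL and 0.135 in LF). The F contrast of Havcr1 was -1.62 ± 0.63 and did not pass (adjusted p = 0.292). The clusterin gene Clu differed by -0.05 in F, 0.57 in L and 0.43 in FL, and rose by 1.14 in LF (adjusted p = 0.002), and the F contrast was -0.76 ± 0.25 (adjusted p = 0.27). Medians over all probe sets were -0.05 in F, 0.0525 in L, 0.055 in FL and 0.065 in LF, so contrasts between strains include a shift. The shift varied with signal level. In the dimmest bin the medians were 0.0475 in F, -0.04 in L, -0.0325 in FL and -0.0575 in LF. In the 3rd bin they were -0.0925 in F, 0.105 in L, 0.11 in FL and 0.16 in LF. The macrophage list had a median of -0.25 in F, 0.19 in L, 0.0875 in FL and 0.33 in LF. The injury list had -0.10 in F, 0.19 in L, 0.19 in FL and 0.45 in LF. The interferon list had -0.03 in F, 0.31 in L, 0.065 in FL and 0.94 in LF. Between the days 0 probe sets passed in L (0.00%) and in FL (0.00%), whereas 94 rose (1.07%) and 9 fell (0.102%) in LF.

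**Figure D4:**
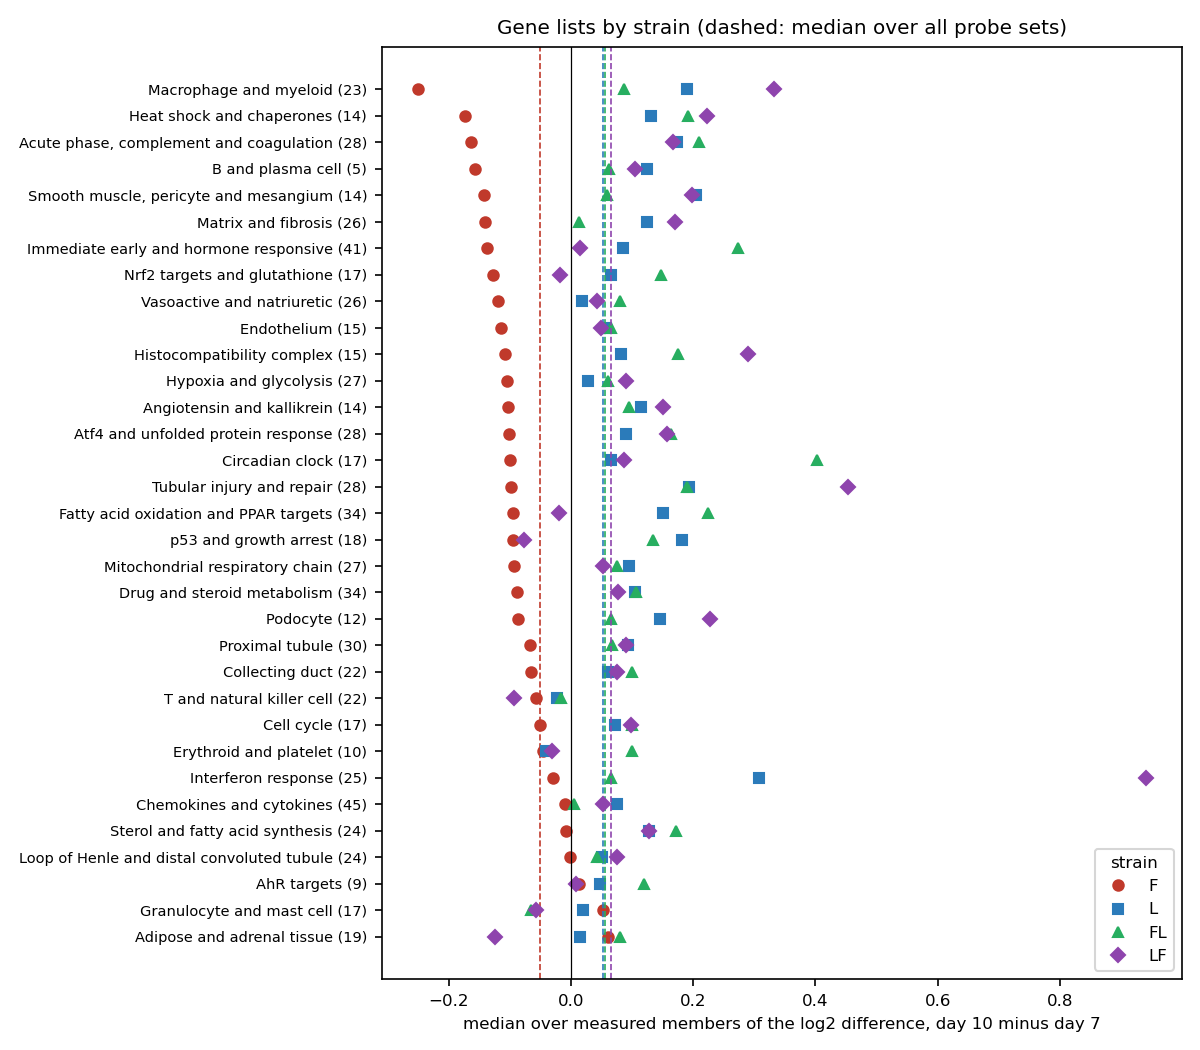
Median log2 difference, day 10 minus day 7 (horizontal axis), over the measured members of each of 33 gene lists (rows, number measured in brackets), with 1 marker per strain and a dashed line at each strain's median over all probe sets. The F markers lie mostly left of 0 and the markers of L, FL and LF mostly right of it, and the interferon list of LF lies at 0.94.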

How the data were processed

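Kidney RNA from male rats was labelled, per the labels' protocols, from 1 µg after removal of ribosomal RNA and read on whole-transcript arrays. The deposited values are log2 signals, 1 per probe set and array. RMA and limma appear, with no version or role, in the submitters' processing notes, and the probe set selection and probe annotation are not given in the sources used here. All 48 arrays and 8797 probe sets were used, with every column matched to its sample title, and 0 columns were left without a sample. Of the probe sets, 7603 had 1 gene symbol in the platform annotation, 409 several and 785 none, and symbols were updated through the Entrez identifier for 7584. Where a symbol had more than 1 probe set (14 symbols), that of highest mean was read.

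With limma 3.58.1 in R 4.3.3, all 48 arrays were fitted with 1 mean per strain and day, which left 36 residual degrees of freedom beside 3.69 prior ones. The contrasts were F day 10 minus day 7, each treated day minus day 0 in F, day 10 minus day 7 in the other strains, and the F difference minus the mean of the other strains. Calls rest on Benjamini-Hochberg adjusted p-values over the whole table, under 0.05. Precision is limited by having 4 arrays per group. Per-array spread and median were compared by an exact permutation test that did not pair arrays by run. Scripts were tested on simulated data.

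Replicate numbers pair the arrays through the array run, since the scanner file names in the labels share a run per number. The deviations of same-numbered F arrays from their group means correlated at 0.409, 0.0727, 0.0969 and 0.416 for numbers 1 to 4. The highest correlations of the day 10 arrays with day 7 arrays of another number were 0.0764, 0.0713, 0.0916 and 0.0229. For numbers 2 and 3 the values alone thus hardly set the same run apart from another.

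Genes were named by a rule: the 10 of smallest p in each direction where none passed, up to 4 members of smallest p per list, the 5 of smallest p in each direction against the other strains, and a fixed list of injury, AhR, angiotensin, clock and segment genes (1 of its genes is not reported here). The 33 gene lists (21 pathways, 12 cell types or tissues) held 1109 genes, of which 692 were measured. Lists and members were chosen with earlier results of these data known. Lists are described by counts and medians, without a test. Alternatives covered the array run as a block, the arrays in the fit, scaling, array weights and spread, dim probe sets, the variance model, several probe sets per gene and arrays left out. Promoter sequences are from RefSeq, build GRCr8.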

Additional observations from a re-analysis of the deposited data

Results flagged for a closer look

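In 9 of 164 groups of 4 F arrays (82 genes at 2 days) the gap of 1 array to the nearest other was a larger share of the group's range than Dixon's critical value at 95%, a level that chance passes in about 1 of 20 groups. At day 10, Hmox1 stood at 5.74 in replicate 4, below the other 3 arrays, which lay between 8.61 and 9.09. Atp1b4 stood at 3.54 in replicate 4 and Cnn1 at 5.61 in replicate 2, each above the other day 10 arrays. At day 7, Lum stood at 3.11 in replicate 4, Notch3 at 6.71 in replicate 3, and both lay below the other day 7 arrays. Atf3 stood at 6.60 in replicate 4, Tsc22d3 at 8.81 in replicate 3, Gfpt2 at 4.36 in replicate 1 and Mx2 at 5.34 in replicate 1, each above the others of its group. The 9 values came from 4 different replicate numbers.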

How the results depend on the processing

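The absence of probe sets past the threshold between day 10 and day 7 held under every alternative except the array spread as a covariate, with 1 probe set higher, and the omission of F day 10 replicate 4, also with 1, and it was Or6k14 in both. Leaving out single F arrays or a replicate number gave 0 to 1 probe sets higher and 0 lower. In F against the other strains there were 3 lower changes with the replicate block, 1 higher with array medians subtracted, 1 higher with the spread covariate, and 64 higher and 449 lower with array weights, and omissions gave 0 to 1 in each direction. Among the named genes, 19 passed against day 0 at day 7 and 8 at day 10. Most were named by p between the treated days, so these counts are not independent of the naming rule. Over all probe sets 0.432% were higher and 0.239% lower at day 7, and 0.0796% higher and 0.159% lower at day 10. At day 7 the number of named genes passing was 31 with array weights and 25 after a second quantile normalization. It was 2 to 20 over the omissions, the lowest without replicate number 4 (8 without number 2, 11 without number 1). At day 10 it was 17 after a second quantile normalization, also with the replicate block (an alternative chosen after seeing the data), 15 with array medians subtracted, 14 with the array spread as covariate and 3 to 8 over the omissions (5 without F day 10 replicate 1). The block changed no call of the comparison between the days and gave 22 and 11 against day 0. Of the named day 0 calls, Sult1a1 at day 7 and Clu at day 10 were each lost under 7 alternatives, with adjusted p up to 0.444 and 0.363. Of 1869 values of 82 named genes under 23 alternatives, 1867 stayed on the same side of the threshold, and 14 genes changed sign in at least 1, among them Havcr1, Clu, Cyp1a1 and Hmox1, each without passing on either side. The cause of these shifts was not tested.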
